A study of Mus musculus with 6 samples.

Results

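The insulin-like growth factor (IGF) family in these data comprised 10 genes, which encode 2 ligands (Igf1 and Igf2), 2 receptors (Igf1r and Igf2r) and 6 secreted binding proteins (Igfbp2 to Igfbp7). They were taken by symbol from the 13105 genes of the deposited expression table, and all 10 passed the filter on low values used for testing, which kept 12268 genes. The libraries were made from whole biceps of CD-1 mice. In each of 3 mice the brachial plexus of one forelimb (C5-T1) was excised on postnatal day 5, and the biceps of both sides were frozen on postnatal day 26, 3 weeks later, which gave 3 denervated and 3 contralateral control muscles. The labels give no transgene or drug in either group, and the control is the opposite arm of an operated animal rather than a muscle of an unoperated one. The series presents the pair as normal postnatal growth against arrested growth that ends in contracture.

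IGF-I and IGF-II are small secreted hormones related to insulin that both signal through the tyrosine kinase receptor encoded by Igf1r, whose downstream kinases promote protein synthesis and cell growth. In skeletal muscle, locally made IGF-I is a well known stimulus of fibre growth and of satellite cells, the muscle stem cells, and IGF-II is abundant in fetal muscle and during differentiation of muscle precursors. The product of Igf2r, also the cation-independent mannose 6-phosphate receptor, binds IGF-II and delivers it to lysosomes, where it is degraded. The binding proteins hold the ligands in the extracellular space and can block or prolong their action. IGFBP-7 is a more distant relative that binds the ligands weakly.

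Igfbp5, Igfbp2, Igf2r and Igfbp4 rose in denervated biceps on both scales used here. Igf1, Igf2, Igf1r, Igfbp3 and Igfbp7 were called higher on the deposited scale, but were not called after a correction for a shift shared by most genes. Igfbp6 was not called on the deposited scale and was called lower after that correction. The deposited scale is log2(TPM + 1), where TPM is a relative abundance, corrected for transcript length, that sums to a fixed total over each library. On it the median of the 12268 tested genes was 0.71 higher in denervated muscle. The second scale divides each library by its median-of-ratios factor before the log, which brings that median to 0.01, and is called scaled below. The words rose and fell are kept for genes whose limma calls point the same way on the deposited and the scaled values, at a Benjamini-Hochberg adjusted p under 0.05 over all genes tested. In these bulk samples, fewer cells of a type and less RNA per cell cannot be told apart.

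The labels were checked with 3 genes outside the family. Chrna1 and Chrng, subunits of the muscle acetylcholine receptor that denervated fibres are known to produce, measured 12.5 to 16.5 and 2.30 to 2.38 TPM in control libraries and 215 to 260 and 43.6 to 66.5 TPM in denervated libraries. Ckm, the muscle creatine kinase and a defining fibre marker, measured 2023 to 2465 TPM in control and 820 to 1152 TPM in denervated libraries, so every library carried the RNA of muscle fibres. The listed genes held 68.8% to 70.4% of the full TPM total in control and 77.3% to 80.3% in denervated libraries. The files hold no read counts, which leaves the depth of single values unknown. The labels state at least 35 to 40 M reads per library. Both muscles of a mouse share their number in the labels, and p-values measure the spread between 3 muscles a group.

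The 4 genes that rose lie at separate loci except for Igfbp2 and Igfbp5. These lie tail to tail on chromosome 1, Igfbp2 on the plus strand at chr1:72824503-72852474 and Igfbp5 on the minus strand at chr1:72857932-72874884, with 5457 bases and 0 protein-coding genes between them. Igf2r lies on the minus strand at chr17:12682406-12769664 and Igfbp4 on the plus strand at chr11:99041244-99054392. The gene that was lower after scaling, Igfbp6, lies on the plus strand at chr15:102144362-102149511. These coordinates come from GENCODE M21 on GRCm38, and all 5 genes are protein-coding. The 250 bases before a RefSeq start of each (GRCm38.p6) follow, for Igfbp2 before the first of its 2 starts, because these are the members with a call after scaling. They read 5′ to 3′ on the gene's own strand, and capitals mark every E-box CANNTG, the recognition letters of basic helix-loop-helix proteins such as the myogenic factors, and every TATAAA or TATTTAA, searched on both strands.
Igf2r (chr17:12769707-12769956, minus strand): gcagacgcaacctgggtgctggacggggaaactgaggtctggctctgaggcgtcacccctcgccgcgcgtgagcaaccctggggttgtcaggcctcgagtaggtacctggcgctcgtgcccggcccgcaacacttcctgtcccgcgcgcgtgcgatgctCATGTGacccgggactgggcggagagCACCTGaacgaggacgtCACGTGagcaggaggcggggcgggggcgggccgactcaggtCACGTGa
Igfbp2 (chr1:72824230-72824479, plus strand): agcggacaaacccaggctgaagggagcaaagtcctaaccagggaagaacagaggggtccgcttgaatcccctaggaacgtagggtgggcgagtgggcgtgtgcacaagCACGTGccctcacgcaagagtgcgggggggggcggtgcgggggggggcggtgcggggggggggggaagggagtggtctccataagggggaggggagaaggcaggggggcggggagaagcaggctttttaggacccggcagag
Igfbp4 (chr11:99040994-99041243, plus strand): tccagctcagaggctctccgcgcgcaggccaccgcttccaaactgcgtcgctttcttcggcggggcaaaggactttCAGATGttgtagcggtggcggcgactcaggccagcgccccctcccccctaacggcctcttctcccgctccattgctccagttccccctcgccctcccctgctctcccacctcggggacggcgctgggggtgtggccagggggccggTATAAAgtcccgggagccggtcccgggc
Igfbp5 (chr1:72874866-72875115, minus strand): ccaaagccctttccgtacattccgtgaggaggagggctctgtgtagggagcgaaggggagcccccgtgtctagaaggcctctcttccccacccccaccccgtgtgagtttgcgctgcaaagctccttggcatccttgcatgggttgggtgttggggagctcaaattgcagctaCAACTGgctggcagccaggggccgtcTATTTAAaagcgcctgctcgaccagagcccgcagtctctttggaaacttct
Igfbp6 (chr15:102143936-102144185, plus strand): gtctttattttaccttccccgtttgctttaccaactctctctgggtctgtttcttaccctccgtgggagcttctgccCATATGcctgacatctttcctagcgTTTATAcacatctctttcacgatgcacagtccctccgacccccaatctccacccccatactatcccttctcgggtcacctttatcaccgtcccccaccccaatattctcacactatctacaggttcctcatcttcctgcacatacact

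Each of the 5 windows holds at least 1 E-box, as do 66.2% of the 32851 windows of the same length before RefSeq starts of 27025 genes. The Igf2r window holds 4, and 3.84% of all windows hold 4 or more. Of these, 2 are CACGTG, itself one form of CANNTG, and 0.429% of windows hold 2 or more of it. The Igfbp2 window holds a single CACGTG, which occurs in 6.02% of windows. The window before the second Igfbp2 start (chr1:72825137-72825386) has 1 E-box of other letters, no CACGTG, no GGGCGG and a GC content of 56.4%. Igfbp4 has TATAAA 28 bases before the start (12.4% of windows on either strand) and Igfbp5 has TATTTAA 51 bases before it (4.18%). The TATA match of Igfbp6 lies on the opposite strand, 148 bases before the start. The GC box GGGCGG, on either strand, occurs 3 times each in Igf2r and Igfbp2 and in 32.7% of windows, and CCAAT occurs 2 times in Igfbp6 and in 33.8% of windows. The GC content of the windows was 69.2% for Igf2r and Igfbp4, 67.2% for Igfbp2, 58.8% for Igfbp5 and 49.6% for Igfbp6, against a median of 52.4% over all windows. Of the members with no call after scaling, it was 77.6% for Igf1r, 74.0% for Igfbp7, 73.2% for Igfbp3 and 52.8% for Igf1. It was 47.6% to 68.8% in the windows of Igf2. GC boxes also occur in windows of Igf1r, Igf2 and Igfbp7, so neither trait is particular to the genes that rose. These matches describe letters, and no binding was measured.

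Across the family, 9 of 10 genes were called higher on the deposited scale, where 69.9% of all tested genes were, and 0 were called lower (4.5% of all genes) by limma. At an unadjusted limma p under 0.05 the lower count was also 0. After scaling, 4 were called higher (15.7% of all genes) and 1 lower (18.6% of all genes). On both scales together 4 rose (15.7% of all genes) and 0 fell (4.5% of all genes, and 0 members at an unadjusted limma p). Over all genes, those that rose were the 1922 called higher after scaling. Those that fell were the 552 called lower on the deposited scale. The scaled call thus decided a rise, and the deposited call, with its upward shift, decided a fall. The denervated libraries lay wholly above the control libraries for 7 members on the deposited scale (71.4% of all genes) and for 5 after scaling (24.3% of all genes), and wholly below for 0 on the deposited scale (4.96% of all genes). Quantile normalization also gave 4 genes called higher (17.7% of all genes). The median log2 fold change of the 10 genes was 1.16 on the deposited scale and 0.34 after scaling, beside 0.71 and 0.01 for all genes. In 8 of the 10, every mouse had more in its denervated than in its control muscle, which held for 79.3% of all genes. The count of risen genes fell to 2 without control replicate 1, to 2 without denervated replicate 1 and to 1, Igfbp5, without both libraries of mouse 1.

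**Figure D1:**
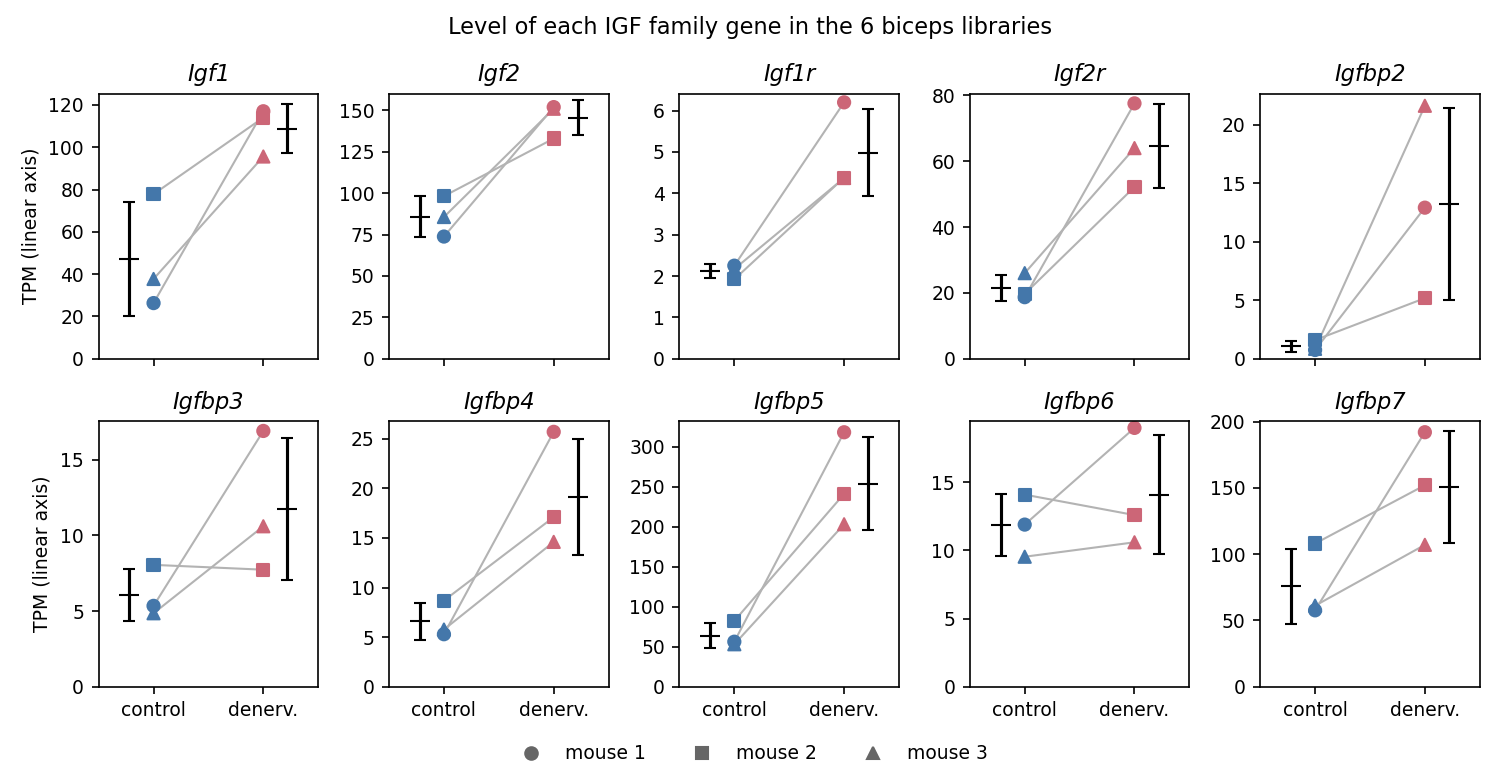
TPM (linear axes from 0) of the 10 IGF family genes in the control and denervated biceps of 3 mice, with a line joining the muscles of a mouse and bars for the mean ± SD of each group (n = 3). The groups are separate for 7 genes and overlap for Igfbp3, Igfbp6 and Igfbp7.

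Of the ligands, Igf1 (chr10:87858265-87937042, plus strand) measured 26.3, 77.8 and 37.7 TPM in control replicates 1, 2 and 3 and 117, 114 and 95.6 TPM in denervated replicates 1, 2 and 3. The groups did not overlap, but control replicate 2 stood well above the other controls, and the denervated muscle of a mouse held 4.44, 1.46 and 2.53 times the level of its control in mice 1, 2 and 3. The log2 fold change on the deposited scale was 1.32 ± 0.32 (SE) with a limma adjusted p of 0.00486. After scaling it was 0.44 ± 0.32 with an adjusted p of 0.342, and the scaled levels overlapped, at 36.4, 98.5 and 54.1 in control and 73.2, 89.4 and 75.1 in denervated libraries. The scaled value ranged from 0.11 without control replicate 1 (adjusted p = 0.781) to 0.81 without control replicate 2 (adjusted p = 0.0183), with 0.16 without mouse 1 and 0.72 without mouse 2 (adjusted p = 0.743 and 0.0503). Without both libraries of mouse 1 the deposited call was lost (0.93, adjusted p = 0.0656). Control replicate 2 was also the highest control in the summed fibroblast markers, at 1585 TPM against 664 and 839 TPM in control replicates 1 and 3, and in the summed macrophage markers, at 51.4 against 19.7 and 27.8 TPM. The same held for every other marker list used below. Tendon markers summed to 257 against 122 and 151 TPM, and muscle fibre markers to 22247 against 20672 and 18458 TPM. The part of any of these cells in the level of Igf1 was not tested.

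Igf2 (chr7:142650766-142666816, minus strand), an imprinted gene expressed from the paternal allele in most mouse tissues, measured 73.8, 98.2 and 85.6 TPM in control and 152, 133 and 151 TPM in denervated libraries. All denervated values lay above all control values, and its spread within groups was small. Its log2 fold change was 0.76 ± 0.15 on the deposited scale (limma adjusted p = 0.00162), close to the median of all genes, and -0.13 ± 0.12 after scaling (adjusted p = 0.445). The level of Igf2 is uncertain, since 62.8% of its exonic bases are also annotated to Gm49394, a protein-coding gene on the same strand, and 63.1% of its 31-mers occur in other genes. Gm49394 was not analysed here. The ratio of Igf2 to Igf1 within a library, which does not depend on scaling, was 2.80, 1.26 and 2.27 in control and 1.30, 1.17 and 1.58 in denervated muscles. The ranges overlapped, although the ratio was lower in the denervated than in the control muscle of every mouse. The log2 difference of -0.58 had an exact permutation p of 0.3 (two-sided), where 3 against 3 libraries cannot go below 0.1. That test does not use the pairing of the muscles.

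Among the receptors, Igf1r (chr7:67952827-68233668, plus strand) was present at a low level, 2.25, 1.92 and 2.17 TPM in control and 6.20, 4.38 and 4.37 TPM in denervated libraries. The groups did not overlap on either scale. Its log2 fold change was 0.93 ± 0.17 on the deposited scale (limma adjusted p = 0.00128) and 0.24 ± 0.12 after scaling (adjusted p = 0.170), so it is not counted as risen.

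Igf2r rose. It measured 18.7, 19.7 and 26.0 TPM in control and 77.6, 52.2 and 64.0 TPM in denervated libraries, with 4.14, 2.64 and 2.46 times the control level in mice 1, 2 and 3. The groups did not overlap on either scale. The log2 fold change was 1.54 ± 0.19 on the deposited scale (limma adjusted p = 1.65e-04) and 0.66 ± 0.17 after scaling (adjusted p = 0.0196). The scaled call was lost without control replicate 1 (adjusted p = 0.0637), control replicate 2 (0.0520), denervated replicate 1 (0.0655) or denervated replicate 3 (0.0656), and without mouse 1 (0.158) or mouse 2 (0.0564), and in these 6 cases the scaled value was between 0.56 and 0.65. Airn, the antisense RNA known to silence the paternal Igf2r allele in mouse, overlaps Igf2r on the opposite strand with 0 shared exonic bases. It was looked up after the receptor's values were known, and measured 22.3, 19.9 and 18.8 TPM in control and 55.3, 37.0 and 47.6 TPM in denervated libraries. These values are not scaled, and on the deposited scale 71.4% of all genes lay wholly higher in denervated libraries. No call is given for Airn, so it is not counted as risen. Whether the authors' counting used strand is not stated in the labels or headers.

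The ratio of Igf2r to Igf1r was 8.33, 10.3 and 12.01 in control and 12.5, 11.9 and 14.6 in denervated muscles. The clearance receptor was therefore the more abundant transcript in all 6 libraries. Control replicate 3 lay above denervated replicate 2, so the ranges overlapped, although the ratio was higher in the denervated muscle of every mouse. The log2 difference was 0.36, with an exact permutation p of 0.2 (two-sided, pairing not used). With 1 TPM added to both genes the log2 difference was 0.61.

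**Figure D2:**
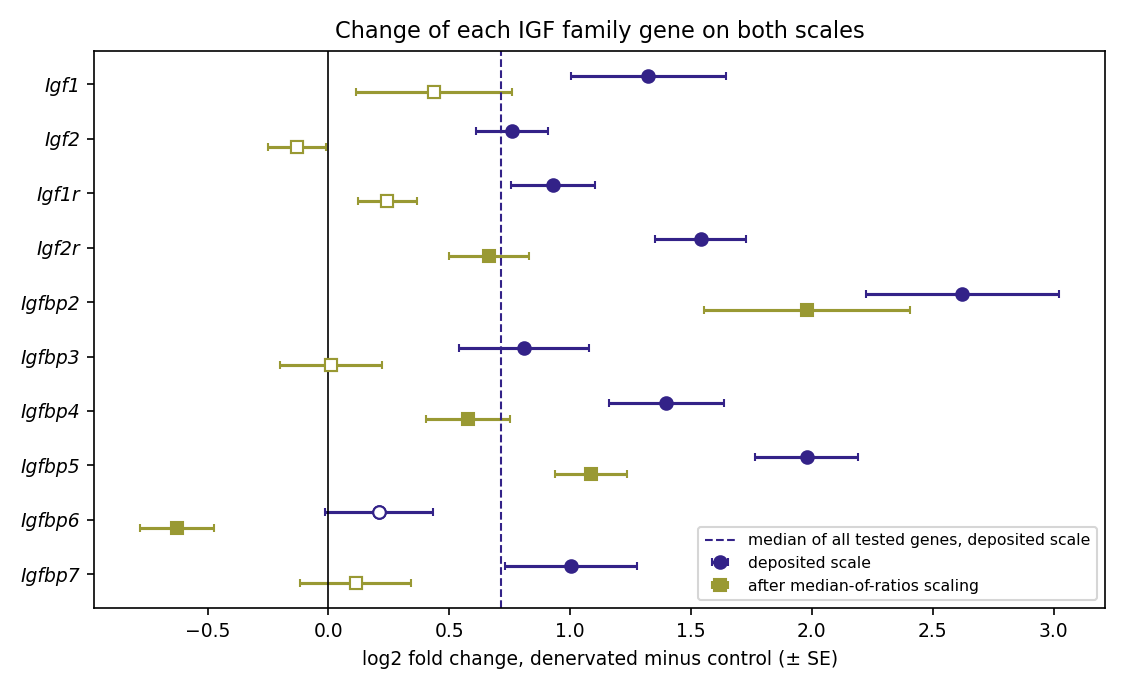
Log2 fold change (denervated minus control, ± SE from limma, n = 3 a group) of each IGF family gene on the deposited log2(TPM + 1) scale (circles) and after median-of-ratios scaling (squares). The dashed line is the median of all tested genes on the deposited scale, 0.71. Open markers stand for values that were not called, and Igf2r, Igfbp2, Igfbp4 and Igfbp5 were called higher on both scales and Igfbp6 lower after scaling alone.

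Among the binding proteins, Igfbp5, which is made by muscle precursors as they differentiate and binds strongly to extracellular matrix, had the highest level of the family in denervated muscle. It measured 56.2, 82.2 and 53.0 TPM in control and 318, 241 and 203 TPM in denervated libraries. All denervated values lay far above all control values, and the mice held 5.65, 2.93 and 3.84 times their control level. Its log2 fold change was 1.98 ± 0.21 on the deposited scale (limma adjusted p = 9.35e-05) and 1.09 ± 0.15 after scaling (adjusted p = 0.00136). Of the 4 genes that rose, it alone was called on both scales under every omission of a library or a mouse that was run.

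Igfbp2, its neighbour on chromosome 1 and an inhibitor of IGF action in many settings, was close to 1 TPM in control muscle. It measured 0.745, 1.59 and 0.839 TPM in control and 12.9, 5.17 and 21.6 TPM in denervated libraries, so it passed the filter of 1 TPM in 3 libraries through the denervated group. The lowest denervated value lay above the highest control value, but the denervated libraries differed widely among themselves. The mice held 17.3, 3.26 and 25.7 times their control level. Its log2 fold change was 2.62 ± 0.40 on the deposited scale (limma adjusted p = 4.68e-04) and 1.98 ± 0.43 after scaling (adjusted p = 0.0109), and the scaled call was lost without mouse 1 (1.88, adjusted p = 0.0990). In the authors' deposited table, Igfbp2 is the single IGF family gene on their list of 336 genes that are up, where the lowest log2 fold is 2.00. Igfbp5 is next in the family, with a log2 fold of 1.98 in the authors' deposited table. The adjusted p in the authors' deposited table is 0.0125 for Igfbp2 and ranges from 0.00327 to 0.0125 for Igfbp5, Igf2r, Igf1r, Igf2 and Igfbp4. The authors' deposited table gives 0.0551 for Igf1, 0.0696 for Igfbp7, 0.114 for Igfbp3 and 0.696 for Igfbp6.

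Igfbp4, an inhibitory binding protein that is cut by the protease PAPP-A, measured 5.29, 8.68 and 5.76 TPM in control and 25.7, 17.1 and 14.6 TPM in denervated libraries. The groups were separate on both scales, with 4.87, 1.97 and 2.53 times the control level in mice 1, 2 and 3. For Igfbp4 the log2 fold change was 1.40 ± 0.24 on the deposited scale (limma adjusted p = 7.88e-04) and 0.58 ± 0.17 after scaling (adjusted p = 0.0395). The scaled call was lost without control replicate 1 (adjusted p = 0.110), control replicate 3 (0.108), denervated replicate 1 (0.126) or denervated replicate 2 (0.0921), and without mouse 1 (0.254) or mouse 3 (0.104). Of its 31-mers, 6.18% occur in other genes.

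Igfbp3, the main carrier of IGFs in blood, measured 5.34, 8.05 and 4.85 TPM in control and 16.9, 7.73 and 10.6 TPM in denervated libraries. The groups overlapped, because mouse 2 held 0.960 times its control level. The log2 fold change of 0.81 ± 0.27 on the deposited scale (limma adjusted p = 0.0214) became 0.01 ± 0.21 after scaling (adjusted p = 0.979). The deposited call was lost without control replicate 3 (adjusted p = 0.0669), denervated replicate 1 (0.0837) or mouse 1 (0.183).

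Igfbp7 (chr5:77349240-77408041, minus strand) measured 57.6, 108 and 61.1 TPM in control and 192, 152 and 107 TPM in denervated libraries. Control replicate 2 lay just above denervated replicate 3, so the groups overlapped, although each mouse had more in its denervated muscle, by 3.33, 1.41 and 1.76 times. The log2 fold change was 1.00 ± 0.27 on the deposited scale (limma adjusted p = 0.00823) and 0.11 ± 0.23 after scaling (adjusted p = 0.748). The deposited call was lost without denervated replicate 1 (adjusted p = 0.0536) or mouse 1 (0.129). Polr2b, on the opposite strand, shares 7.03% of its exonic bases, and 4.57% of its 31-mers, so part of the signal of Igfbp7 is uncertain.

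Igfbp6, a binding protein that prefers IGF-II over IGF-I, was the exception. It measured 11.9, 14.1 and 9.54 TPM in control and 19.01, 12.6 and 10.6 TPM in denervated libraries, with overlapping groups and 1.60, 0.896 and 1.11 times the control level in mice 1, 2 and 3. Its log2 fold change was 0.21 ± 0.22 on the deposited scale (limma adjusted p = 0.408). After scaling all denervated libraries lay below all control libraries, at 11.9, 9.93 and 8.34 against 16.5, 17.9 and 13.7, as they did for 24.4% of all genes, and the value was -0.63 ± 0.15 (adjusted p = 0.0170). That scaled call was lost without control replicate 1 (0.0523), denervated replicate 2 (0.0504), denervated replicate 3 (0.0522), mouse 1 (0.0532) or mouse 2 (0.0983), all as limma adjusted p-values. The sign of the change therefore depends on the scale, and no fall is counted.

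The summed level of the 10 genes was 258, 420 and 287 TPM in control and 937, 739 and 683 TPM in denervated libraries, and 357 to 533 against 537 to 586 after scaling. Shares of this sum do not depend on scaling between libraries. They make up the whole sum in each library, so a larger share of one gene leaves less for the others. Igfbp5 made up 21.8%, 19.6% and 18.5% of it in control and 33.9%, 32.6% and 29.8% in denervated libraries, which took it from 19.9% ± 1.67 to 32.1% ± 2.11 (mean ± SD, n = 3). The share of Igf2 went the other way, from 28.6%, 23.4% and 29.9% to 16.2%, 18.0% and 22.1%. The shares of Igfbp7 (23.1% ± 2.30 to 18.9% ± 2.77) and of Igfbp6 (3.77% ± 0.734 to 1.76% ± 0.242) also separated downward. Those of Igfbp2 (0.320% ± 0.0504 to 1.74% ± 1.27) and Igfbp4 (2.04% ± 0.0287 to 2.40% ± 0.316) separated upward. With 1 TPM added to every gene, the log2 difference in the Igfbp2 share went from 2.19 to 1.34. The larger Igfbp5 share by itself lowers the shares of Igf2, Igfbp7 and Igfbp6. In a sum without Igfbp5, the shares of Igf2 and Igfbp7 overlapped between the groups, and that of Igfbp6 stayed lower in denervated libraries. No test was run on shares of that sum.

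For each of these 6 separate shares the two-sided exact permutation p was 0.1, the smallest that 3 against 3 libraries can give, and 0.167 adjusted over the 10 shares, so none passes 0.05. The shares of Igf1, Igf1r, Igf2r and Igfbp3 overlapped, and that of Igf1 averaged 13.95% and 13.96%. Summed binding protein TPM per summed ligand TPM was 1.37, 1.27 and 1.10 in control and 2.17, 1.76 and 1.49 in denervated libraries, and the groups did not overlap. Igfbp5 alone averaged 63.8 of 165 TPM of summed binding proteins in control and 254 of 463 TPM in denervated libraries. With Igfbp5 left out of the binding proteins, the ratio to the ligands overlapped between the groups. No test was run on either ratio, and the uncertain level of Igf2 enters both.

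**Figure D3:**
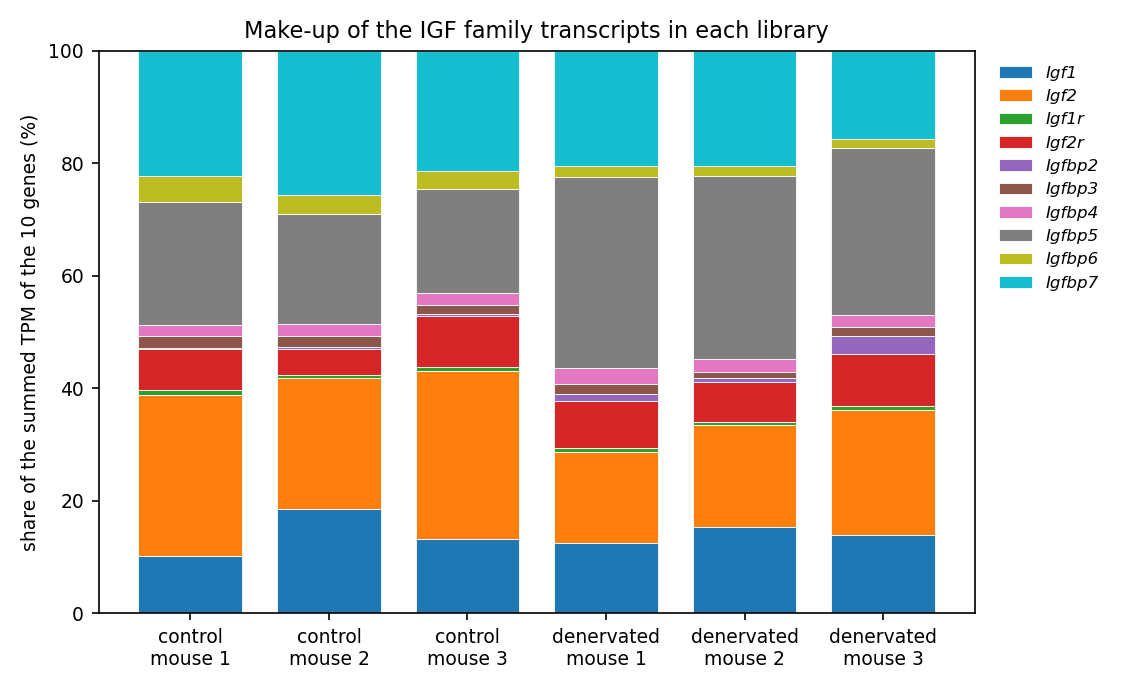
Share (%) of the summed TPM of the 10 IGF family genes that each gene takes in each of the 6 libraries, stacked to 100. The Igfbp5 band widens from 18.5% to 21.8% in control to 29.8% to 33.9% in denervated libraries, and the Igf2 band narrows from 23.4% to 29.9% to 16.2% to 22.1%.

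The order of the family by mean TPM shifted. In control muscle it ran Igf2, Igfbp7, Igfbp5, Igf1, Igf2r, Igfbp6, Igfbp4, Igfbp3, Igf1r and Igfbp2, from 85.9 to 1.06 TPM. The ranges of the first 4 overlapped from each gene to the next, as did those of Igfbp4 and Igfbp3, while the other neighbours were separate. In denervated muscle it ran Igfbp5, Igfbp7, Igf2, Igf1, Igf2r, Igfbp4, Igfbp6, Igfbp2, Igfbp3 and Igf1r, from 254 to 4.98 TPM. There Igfbp5 stood above Igfbp7 without overlap, Igfbp7 and Igf2 overlapped, and the run from Igfbp4 to Igfbp3 overlapped at each step.

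Rank within a library gives a view free of scaling. Among all tested genes, the percentile of Igfbp5 was 94.4 to 95.8 in control and 97.5 to 98.2 in denervated libraries. That of Igf2r was 84.6 to 89.3 and 91.2 to 92.7. Igfbp2 had the widest difference of the family, with percentiles of 8.2 to 21.1 and 40.5 to 79.2. Igfbp6 stood at 73.8 to 78.9 in control and lower, at 62.4 to 71.5, in denervated libraries. The ranges of Igf2, 95.6 to 96.4 and 96.2 to 96.7, overlapped.

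For each ligand and receptor, the 3 genes with the most similar pattern were sought by Euclidean distance over the 6 scaled log2 values after each gene's mean was subtracted, among the 6324 or 6325 genes that averaged 5 TPM or more. Nearest to Igf1 were Coq10b (distance 0.371), Ext1 (0.380) and Cd302 (0.383), against a median of 1.32 over all genes compared. Like Igf1, each of them had its highest control value in replicate 2, which their choice by these same values favours. Nearest to Igf2 were Sav1 (0.111), Bcl7b (0.121) and Gusb (0.128), against a median of 0.689. Igf1r had the closest neighbours, Mfap1a (0.0353), Fbxw7 (0.0511) and Zc3h15 (0.0719), against a median of 0.696. Nearest to Igf2r were Ahsa2 (0.181), Gstz1 (0.208) and Rrp12 (0.256), against a median of 1.11. Libraries and scaling factors are shared by all genes, so these distances are a description.

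The wider pathway was read from 6 lists of 57 genes, of which 40 were in the table and 38 were tested. On both scales 6 rose (15.8%, beside 15.7% of all genes), 1 fell (beside 4.5% of all genes) and 31 did neither. The counts of each list below stand beside the same shares of all genes. Under the replicate block, which compares the muscles within each mouse, 9 rose and 3 fell, beside 16.2% and 4.87% of all genes under the same block. The added genes were Adam12, Htra1 and Gga3, with limma adjusted p-values after scaling of 0.0205, 0.0293 and 0.0118, and, as lower, Ccn3 and Cish, with 0.00119 and 0.00572. In the 5 lists with no fallen gene, the count at an unadjusted limma p under 0.05 was also 0. The lower count over all lists was 2 without control replicate 1, control replicate 3 or mouse 1.

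In the growth hormone arm, the route that drives Igf1 in liver and other tissues, 1 of 8 tested genes rose and 0 fell. Stat5a, a transcription factor that the growth hormone receptor activates through Jak2, measured 2.53, 1.66 and 1.97 TPM in control and 8.50, 6.90 and 7.29 TPM in denervated libraries. Its scaled log2 fold change was 0.78 ± 0.15 with a limma adjusted p of 0.00666. The most abundant gene of the list, the receptor Ghr, measured 47.1 to 54.7 TPM in control and 50.4 to 76.1 TPM in denervated libraries. Its value was 0.39 on the deposited scale (limma adjusted p = 0.0746) and -0.50 after scaling (0.0345). Cish, an inhibitor that growth hormone induces, had a scaled value of -1.32 (0.0454) and a deposited value of -0.61 (0.147). Its scaled levels overlapped, at 3.60 in control replicate 1 and 3.82 in denervated replicate 3. Ghr and Cish are the 2 of 8 called lower after scaling, as were 18.6% of all genes.

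Among the regulators of Igf2 RNA and its locus, 1 of 4 tested genes rose and 0 fell. Igf2bp2, an RNA-binding protein that binds Igf2 messenger RNA, measured 1.02, 0.963 and 0.958 TPM in control and 5.00, 4.38 and 5.23 TPM in denervated libraries. Its scaled log2 fold change was 0.96 ± 0.13 with a limma adjusted p of 0.00114, and its groups were far apart beside their spread. Igf2bp2, like Igfbp2, was near 1 TPM in control muscle and passed the filter through the denervated group. Ctcf, the insulator protein that binds the imprinting control region upstream of H19, was the most abundant of the list, with means of 9.77 (control) and 18.8 TPM (denervated) and a scaled value of 0.01 (adjusted p = 0.946).

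Of the insulin receptor relatives and adaptors, 2 of 11 tested genes rose and 1 fell. Pik3r1, the p85 regulatory subunit of phosphoinositide 3-kinase, went from 7.81, 7.81 and 8.88 to 34.9, 28.4 and 32.0 TPM. Its scaled value was 0.99 ± 0.12 (limma adjusted p = 6.92e-04). Grb2, the adaptor that links receptors to Ras, had a scaled value of 0.50 ± 0.12 (adjusted p = 0.0187). Grb14, an adaptor that inhibits the insulin receptor kinase, fell from 18.2, 21.5 and 14.5 to 10.2, 10.4 and 9.01 TPM. Its log2 fold change was -0.80 ± 0.17 on the deposited scale (limma adjusted p = 0.00253) and -1.63 ± 0.13 after scaling (1.37e-04). Grb10, its imprinted relative and the most abundant gene of the list, had means of 21.5 (control) and 46.0 TPM (denervated) and a scaled value of 0.18 ± 0.09 (adjusted p = 0.182). The catalytic subunit Pik3ca and the docking protein Irs1 were lower after scaling alone, at -0.53 (0.00853) and -0.52 (0.00555). With Grb14, 3 of the 11 were called lower after scaling, as were 18.6% of all genes.

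Mannose 6-phosphate sorting is the other function of Igf2r, which carries lysosomal enzymes from the Golgi to endosomes. Of its 7 tested genes, 1 rose and 0 fell. Gga2, an adaptor that recruits the mannose 6-phosphate receptors into vesicles, measured 3.13, 3.93 and 3.88 TPM in control and 19.7, 14.3 and 13.8 TPM in denervated libraries. Its scaled log2 fold change was 1.07 ± 0.12 with a limma adjusted p of 4.65e-04. M6pr, the smaller cation-dependent receptor of the same route, averaged 8.12 (control) and 14.9 TPM (denervated), with a scaled value of -0.03 ± 0.09 (adjusted p = 0.868). Whether it differs in its change from Igf2r was not tested.

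Of the complex partners and proteases of the binding proteins, 3 were tested and none rose or fell on both scales without the block. Htra1, a serine protease known to cut Igfbp5, was the most abundant, at 3.10, 5.19 and 3.11 TPM in control and 9.51, 11.7 and 7.83 TPM in denervated libraries, with a scaled value of 0.40 ± 0.20 (limma adjusted p = 0.170). Among the distant relatives of the binding proteins, 1 of 5 tested genes rose and 0 fell. Ccn1, a matricellular protein with an IGF-binding-protein-like domain, measured 12.4, 9.56 and 10.8 TPM in control and 53.3, 36.1 and 58.6 TPM in denervated libraries. Its scaled log2 fold change was 1.20 ± 0.20 with a limma adjusted p of 0.00322. In all, 17 listed genes were not analysed here, among them Igfals, Pappa, H19 and Igfbp1.

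**Figure D4:**
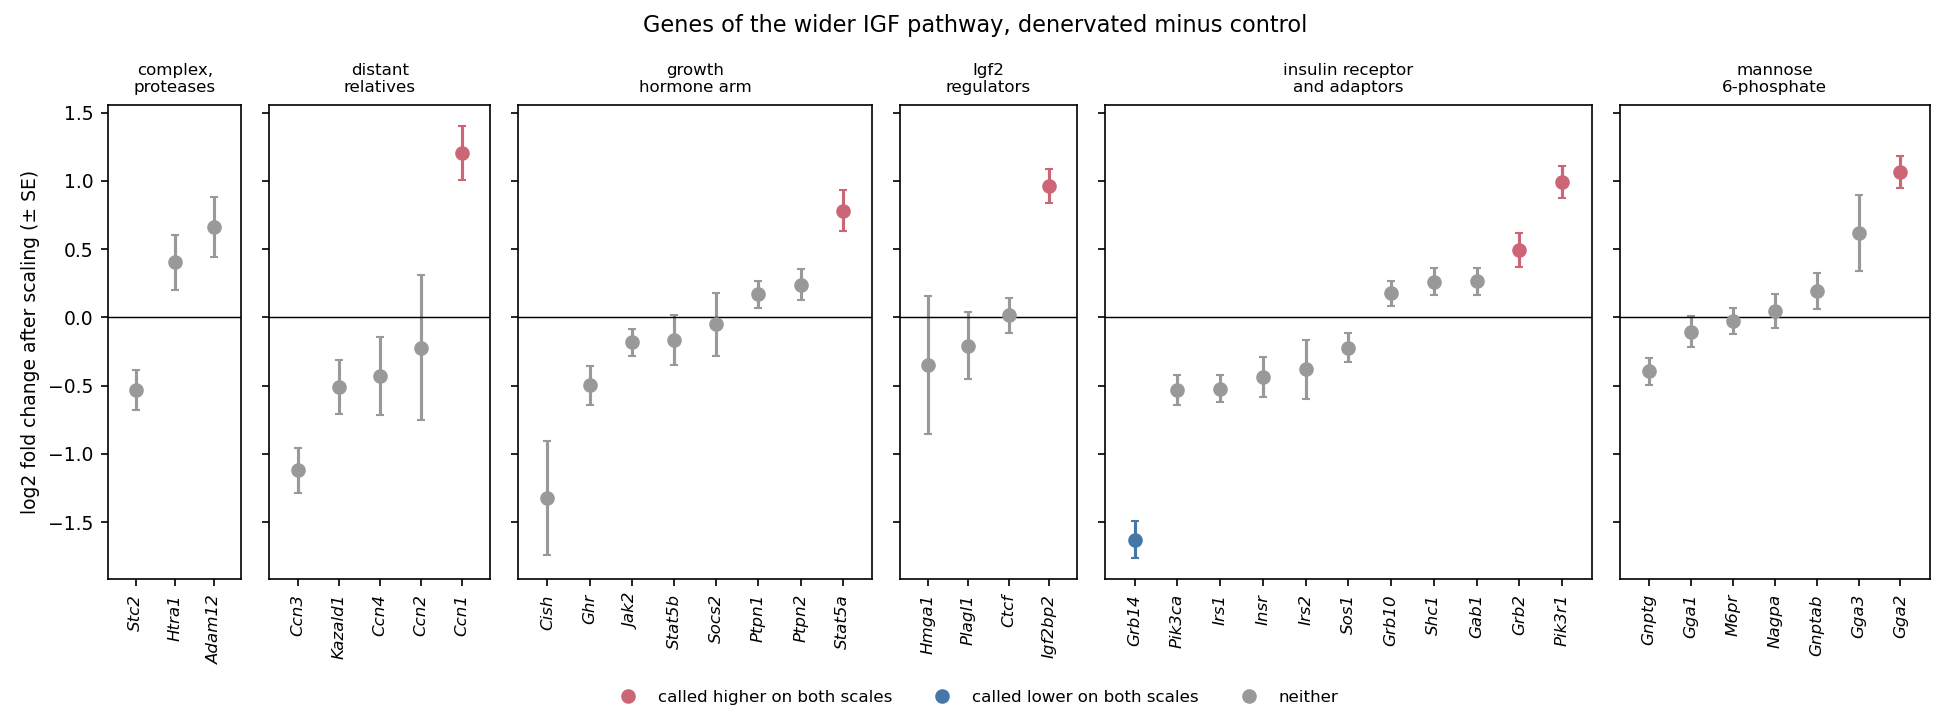
Scaled log2 fold change (denervated minus control, ± SE from limma, n = 3 a group) of the 38 tested genes in 6 lists around the IGF family, ordered within each list. Red points mark the 6 genes called higher on both scales, the blue point marks Grb14, called lower on both, and grey points mark the other 31.

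Markers of other cells in whole muscle moved with the groups too. The counts of risen and fallen markers below stand beside 15.7% and 4.5% of all tested genes. Summed adipocyte markers were at 214 to 345 TPM in control and 533 to 1095 TPM in denervated libraries, with 4 of 6 risen and 0 fallen. Summed satellite cell markers were at 7.85 to 8.84 and 23.6 to 27.5 TPM, with 3 of 5 risen and 0 fallen. These 3, and 1 of the 4 risen adipocyte markers, were under 1 TPM in at least 1 control library and passed the filter through the denervated group. Macrophage markers summed to 19.7 to 51.4 and 54.0 to 79.6 TPM and fibroblast markers to 664 to 1585 and 1217 to 2225 TPM, and 0 of the 8 and 0 of the 10 rose or fell on both scales, and the 6 and 5 called higher on the deposited scale stand beside 69.9% of all genes. Muscle fibre markers summed to 18458 to 22247 and 14411 to 18431 TPM, with 0 of 6 risen and 4 fallen. Endothelial markers summed to 80.8 to 107 and 74.2 to 104 TPM, with 0 of 8 risen or fallen on both scales, while 7 of the 8 were called lower after scaling (18.6% of all genes) with a median scaled log2 fold change of -0.87. Schwann cell markers summed to 71.7 to 158 and 45.5 to 64.4 TPM, with 0 of 4 risen and 2 fallen. Of the pericyte and smooth muscle markers 1 of 8 fell, of the tendon markers 1 of 6 rose and of the erythroid markers 1 of 5 fell, with all 5 called lower after scaling. All these sums are on the deposited scale. After scaling the adipocyte sums overlapped, at 296 to 482 in control and 419 to 860 in denervated libraries. So did the macrophage (27.2 to 65.2 and 42.4 to 57.8) and fibroblast sums (917 to 2009 and 956 to 1748). The satellite cell sums stayed higher, at 11.2 to 11.6 and 17.2 to 21.6. The endothelial (112 to 136 and 58.3 to 65.3), fibre and Schwann cell sums lay wholly lower. No marker in the table was at 0 in any library. The level of Igfbp2 was highest in denervated replicate 3 and lowest in denervated replicate 2, as was the summed level of the adipocyte markers, at 1095 and 533 TPM. The part of these cells in the levels of the IGF family was not tested.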

How the data were processed

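Total RNA of 6 whole biceps muscles was amplified (Ovation RNA-Seq V2), prepared with the Nextera XT kit and read as pairs of 75 bases, per the labels' protocols. The deposited table lists 13105 genes with a log2 value per library, per the file headers, and kallisto 0.42.1 and mm10 are named in the submitters' processing notes. No header names the unit, so the log2 values the authors deposited were read as log2(TPM + 1). Their test is not named in any source used here, and their p-values are quoted only where the authors' deposited table is named.

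Genes with at least 1 TPM in at least 3 of the 6 libraries entered a limma fit (version 3.58.1, R 4.3.3) with group as the factor and a mean-variance trend (eBayes), with Benjamini-Hochberg adjustment over 12268 genes, calls at 0.05 and no block. A fold change on the log2(TPM + 1) scale understates the change of low genes. Median-of-ratios factors, from 12136 genes above 0 in every library, were 0.724, 0.789 and 0.697 for control and 1.60, 1.27 and 1.27 for denervated replicates. Other settings tried were quantile normalization, other filters and pseudocounts, a block on the mouse and the omission of each library and each mouse. Single ratios and shares were tested with exact permutation tests that did not use the pairing.

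The pairing of the muscles comes from the labels, which name the mouse. Deviations from the group means correlated between the muscles of mice 1, 2 and 3 at 0.312, 0.183 and 0.411 across genes. The members, the lists and the tests were chosen with earlier results of these data known. All 10 members are named. From each pathway list up to 3 genes called on both scales and the most abundant are named, with the 3 genes most like each ligand and receptor and Chrna1, Chrng and Ckm as checks, and other genes given beside them were chosen after their values were seen. A spreadsheet had altered 18 symbols in the table, which were restored by gene ID, and Ccn genes were matched by ID. Promoter sequences are those of RefSeq, with a match for all 10 members, and shared 31-mers were counted in GENCODE M21 transcripts. Median-of-ratios and quantile scaling both assume that the typical gene does not change.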

Additional observations from a re-analysis of the deposited data

How the results depend on the processing

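Of the 10 IGF family genes, 9 were called higher on the deposited scale, 4 after median-of-ratios scaling and 4 after quantile normalization, and the count called lower was 0, 1 and 1. Igf2 turned to -0.13 with median-of-ratios scaling. Igfbp6 turned to -0.63 with median-of-ratios scaling, -0.56 with quantile normalization, -0.0150 without denervated replicate 1 and -0.00384 without mouse 1 on the deposited scale, where it reached 0.39 without mouse 2. After median-of-ratios scaling, values near 0 changed sign as libraries were left out, Igfbp3 from 0.01 to as low as -0.22 without mouse 1 (-0.0486 without control replicate 1, -0.0878 without control replicate 3, -0.16 without denervated replicate 1, -0.00340 without denervated replicate 3 and -0.10 without mouse 3) and Igfbp7 from 0.11 to -0.0398 without control replicate 1 and -0.12 without mouse 1. The cause was not tested.

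The members called higher on the deposited scale numbered 6 to 9, and those called higher on both scales 1 to 4, as libraries or mice were left out. The replicate block, which pairs the muscles of a mouse, changed no member's call on either scale. It moved the pathway genes called higher on both scales from 6 to 9 and those called lower from 1 to 3, and the latter count ranged from 1 to 2 as libraries or mice were left out. The log2 difference in the ratio of Igf2r to Igf1r went from 0.36 to 0.61 with 1 TPM added, and 0.25 to 0.44 without a mouse. With 1 TPM added, the log2 difference in the Igfbp2 share went from 2.19 to 1.34. The stricter filter, 5 TPM in 3 libraries, kept 7218 genes and gave no value for Igf1r.

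With 3 muscles a group no exact test on a share or ratio can pass 0.05. Depth per gene is unknown, so the counting error of low levels such as Igfbp2 in control muscle could not be estimated here.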
